A study of Danio rerio with 36 samples.

Results

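Zebrafish regrow an amputated caudal fin from a blastema, a mass of proliferating connective tissue cells under a wound epidermis. The 5 genes described here code for secreted regulators of growth: inhbaa, mstnb, fsta, mdka and mdkb. They were chosen by name, with earlier results from these libraries known, and all 5 were among the 14781 genes counted. Activins are dimers of inhibin beta chains, and inhbaa encodes the beta A chain. Activins and myostatin, the product of mstnb, bind type II receptors of the Acvr2 family and signal through the type I receptors to Smad2 and Smad3. Myostatin is best known as a brake on muscle growth, and activin beta A as a signal that fin regeneration in zebrafish needs. Follistatin, encoded by fsta, is secreted, binds activins and myostatin and keeps them from their receptors. Midkine is a heparin-binding growth factor of embryonic and repairing tissue, present in zebrafish as the paralogs mdka and mdkb.

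Messenger RNA was sequenced in 18 libraries of fins or fin cells from the outbred EK strain, and the deposited values were read counts per gene. Batch 1 consisted of 2 libraries of whole fins at 4 days post amputation (dpa) and 2 of uninjured fins (0 dpa). In batch 2 there were 3 libraries of fins labelled 1 dpa and 3 of fins labelled 0 dpa. In batch 3 there were sorted fibroblasts, with 2 libraries at 4 dpa and 2 at 0 dpa. This batch also held single libraries of whole fins at 2 and 0 dpa from fish with the LEN deletion, and from fish for which the labels name no genotype. LEN is the lepb-linked enhancer, noncoding DNA known for driving the leptin gene lepb after injury. A whole-fin library was a pool of 15 fish aged 3 or 4 months (the labels give both) to 12 months, and a fibroblast library a pool of 75 fish.

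Fibroblasts at both times carried the same background. One protocol names Tg(tph1b:mCherry-NTR;ubi:switch) fish and another Tg(tph1b:creER;ubi:switch) fish clipped and given 4 µM tamoxifen for 12 h at 2 dpa before the fins regrew. Either transgene is driven by tph1b, so cells that never had tph1b activity are not marked by it. The sort and the enzymatic dissociation are described only in general or for the accessibility assay. All 15 fibroblast markers were above 0 counts and summed to 33730 to 40790 CPM at 4 dpa and 10760 to 10880 CPM at 0 dpa. The actinodin genes and1 and and2, which code for fibre proteins of the regrowing fin fold, made up the gap: without them the other 13 summed to 7673 to 7960 CPM at 4 dpa and 10640 to 10690 CPM at 0 dpa. Of the 15, 6 were called higher at 4 dpa, 4 lower and 5 not, with a median log2 fold change of 0.13. Epidermal markers were present too, at 7712 to 8159 CPM at 4 dpa and 20820 to 40100 CPM at 0 dpa. The level of tph1b itself was 203 CPM in fibroblasts at 4 dpa and 6.14 CPM at 0 dpa (means, n = 2 each).

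The labels of batch 2 stand against other information. The names under which these libraries were deposited call those labelled 0 dpa injured and those labelled 1 dpa uninjured. By rank correlation over genes outside their batch, the 3 libraries labelled 1 dpa were nearest to a 0 dpa fin of batch 1 (0.964 to 0.968), and the 3 labelled 0 dpa were nearest to 2 dpa fins of batch 3 (0.949 to 0.957). The labels are followed below. Every batch 2 value with a direction would have the opposite sign if the groups were exchanged.

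Levels are CPM, the counts of a gene relative to the scaled total of its library, scaled with factors from all 18 libraries and not corrected for gene length, so they compare libraries and not genes. Log2 fold changes come from edgeR and are given with a standard error (SE). Each was fitted on the libraries of 1 comparison with that comparison's own scaling. Only the difference between the fibroblast and whole-fin responses was fitted over all 14 replicated libraries. Because the 5 genes were chosen with such values known, their fold changes are a description, and no p-value is given for them. Where the 5 genes are counted as called or not called, this is a description too, and nothing is read from it. In bulk RNA, fewer cells of a type and less RNA per cell cannot be told apart. A library had 19427984 to 43871436 counts on genes.

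The activin beta A gene inhbaa was higher in whole fins at 4 dpa than at 0 dpa, but lower in fibroblasts at 4 dpa than at 0 dpa. In batch 1 it had 44.1 and 38.2 CPM at 4 dpa, against 16.4 and 13.3 CPM at 0 dpa. The lower 4 dpa library was well above the higher 0 dpa library, with a log2 fold change of 1.36 (SE 0.145). In fibroblasts it had 226 and 232 CPM at 4 dpa, against 532 and 897 CPM at 0 dpa, a log2 fold change of -1.55 (SE 0.245). The 0 dpa fibroblasts were the highest of all groups and also spread most, yet neither overlapped the 4 dpa fibroblasts.

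In batch 2, inhbaa had 8.58, 10.2 and 9.97 CPM in fins labelled 1 dpa, against 254, 249 and 159 CPM in fins labelled 0 dpa. The groups were far apart, with a log2 fold change of -4.46 (SE 0.234), and the libraries labelled 1 dpa lay near the uninjured fins of the other batches. In batch 3, the LEN deletion fin had 70.7 CPM at 2 dpa and 9.79 CPM at 0 dpa, and the fin without a named deletion had 87.1 CPM at 2 dpa and 11.7 CPM at 0 dpa. Both pairs gave more inhbaa at 2 dpa, by 2.85 on the log2 scale (SE 0.111; the fit has a genotype term and 1 library per group). By mean level the order was fibroblasts 0 dpa, fibroblasts 4 dpa, fins labelled 0 dpa, the fins at 2 dpa, the fins at 4 dpa, and then the 0 dpa fins together with those labelled 1 dpa. The neighbours fibroblasts 4 dpa and fins labelled 0 dpa overlapped in their libraries, as did the LEN deletion fin at 0 dpa and the fins labelled 1 dpa.

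The myostatin gene mstnb went the other way in the early fins. At 2 dpa the LEN deletion fin had 0.337 CPM (11 counts), against 23.2 CPM (739 counts) at 0 dpa. The fin without a named deletion had 0.240 CPM (8 counts) at 2 dpa, against 22.3 CPM (639 counts) at 0 dpa. Summed over both genotypes, 19 counts at 2 dpa stood against 1378 at 0 dpa, a ratio of 0.0127 after scaling (exact conditional 95% interval 0.00759 to 0.0198, counting error only). The fitted log2 fold change was -6.31 (SE 0.224).

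Batch 2 also showed a wide gap between its groups, but as labelled the 0 dpa fins were the ones with less mstnb. The libraries labelled 1 dpa had 9.67, 11.2 and 9.55 CPM of mstnb, and those labelled 0 dpa had 0.0632, 0.0893 and 0.0586 CPM, from 2, 3 and 2 counts. The ratio of the summed counts was 144 (exact conditional 95% interval 69.5 to 359), and the log2 fold change was 7.16 (SE 0.205). The libraries labelled 0 dpa were the lowest of all groups in mstnb.

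At 4 dpa the mstnb difference was small in whole fins and larger in fibroblasts. Whole fins of batch 1 had 14.8 and 12.0 CPM at 4 dpa, against 20.6 and 17.6 CPM at 0 dpa, with a log2 fold change of -0.62 (SE 0.152). Scaling by library size alone gave -0.17, and the fit without the second 4 dpa library gave -0.48. The size of this difference thus varied with the scaling and the libraries kept. Fibroblasts had 4.62 and 4.07 CPM at 4 dpa, against 15.7 and 19.7 CPM at 0 dpa, with a log2 fold change of -1.92 (SE 0.227). The groups did not overlap in either comparison. The fins at 4 dpa and those at 2 dpa come from different batches, so their distance is given as levels only. In the order of mstnb means, fins at 0 dpa of batches 3 and 1 stood highest, and the 0 dpa fins of batch 1 overlapped the 0 dpa fibroblasts.

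Skeletal muscle, the tissue best known for myostatin, was low in these libraries by its defining markers. Of 25 muscle markers measured, 15 to 20 were under 1 CPM in each group. The myogenic factor gene myog and the parvalbumin gene pvalb2 were at 0 counts in every group, and the light chain gene mylpfa did not pass 0.087 CPM in the mean of a replicated group. The summed level was 43.4 to 44.6 CPM at 4 dpa and 66.6 to 92.0 CPM at 0 dpa in batch 1. It was 83.6 to 91.7 CPM in fins labelled 1 dpa and 24.0 to 24.6 CPM in fins labelled 0 dpa. It was 20.4 to 25.3 CPM in fibroblasts at 4 dpa and 34.0 to 41.2 CPM at 0 dpa. The 2 dpa fins had 66.9 and 67.8 CPM and the 0 dpa fins of that batch 121.2 and 115 CPM. In whole fins much of it was myoglobin, mb, at 51.9 CPM in fins labelled 1 dpa and 10.0 CPM in fins labelled 0 dpa. Also in this sum, pax7b had 21 CPM, mylz3 5.95 CPM and pax7a 5.78 CPM in fins labelled 1 dpa. In fins labelled 0 dpa they had 3.41, 1.62 and 1.54 CPM in that order. The sum in batch 2 thus rests on few of its genes. In fibroblasts mb had 1.39 CPM at 4 dpa and 10.9 CPM at 0 dpa. Not all markers were near 0. The creatine kinase gene ckma had 17.4 CPM (LEN deletion) and 22.8 CPM in the 0 dpa fins of batch 3, and the myogenic factor gene myod1 had 7.52 CPM in fibroblasts at 0 dpa. In each of the 4 comparisons the group with less mstnb also had the lower muscle sum. The calls per gene were divided. In batch 1, 2 of 11 tested markers were called higher at 4 dpa, 5 lower and 4 not. In fins labelled 1 dpa 7 of 9 were higher, 1 lower and 1 not called. In fibroblasts 2 of 15 were higher at 4 dpa, 3 lower and 10 not called. At 2 dpa 2 of 14 were higher, 6 lower and 6 not called. The marker tnnt3b went against mstnb in all 4, with means of 5.86 CPM in fibroblasts at 4 dpa and 3.07 CPM at 0 dpa. The part of the muscle sum in the mstnb values was not tested.

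**Figure D1:**
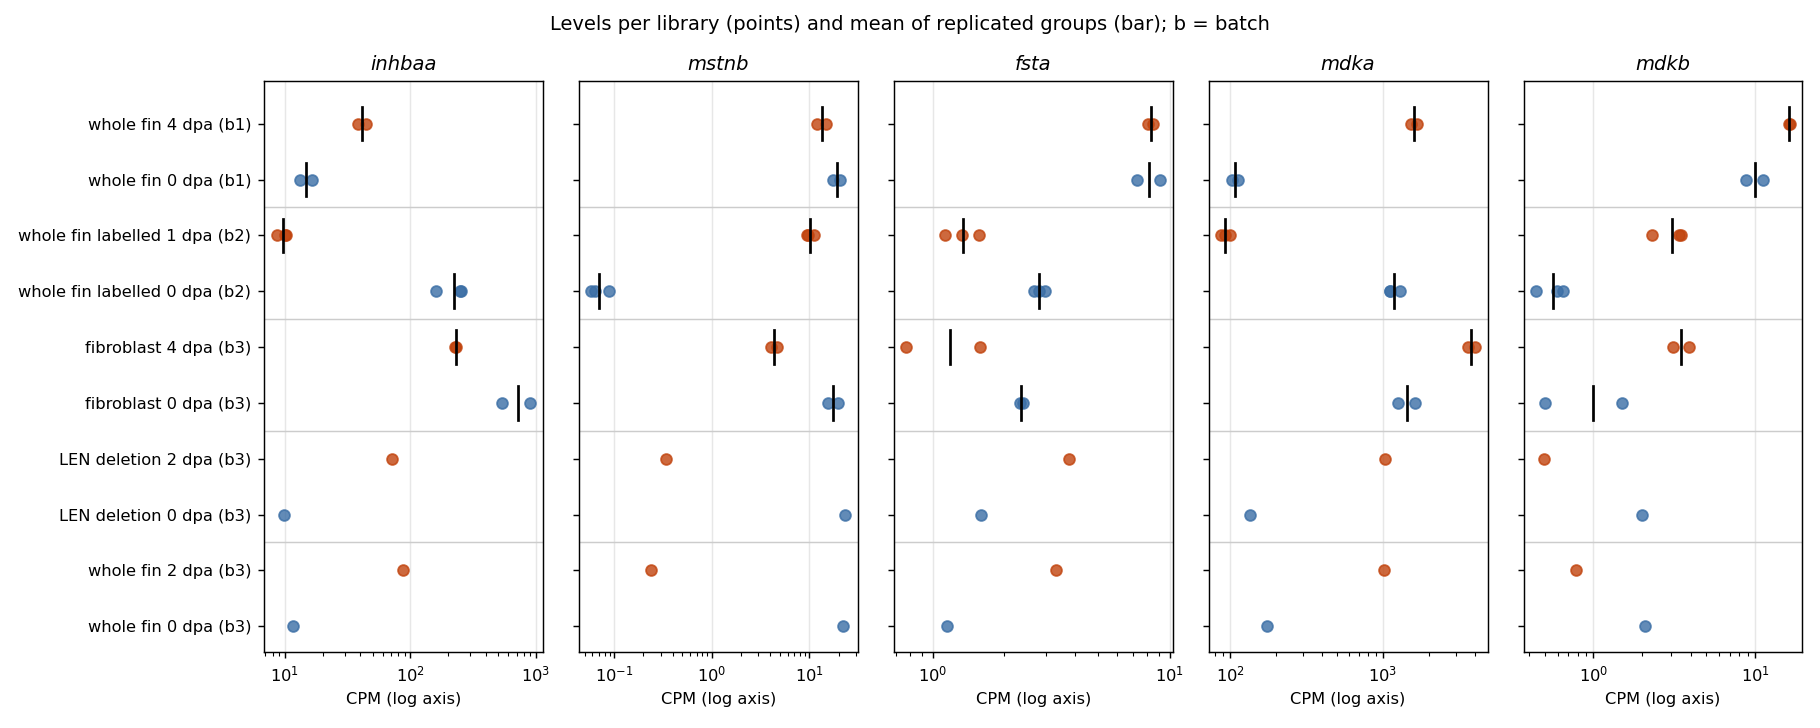
Level of each gene in CPM (log axis) in all 18 libraries, by group; each point is 1 library and the bar is the mean of a replicated group. In mstnb the 3 libraries labelled 0 dpa lie at 0.0586 to 0.0893 CPM and the 2 dpa fins at 0.240 and 0.337 CPM, left of all other libraries.

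The follistatin gene fsta, for the shared antagonist, varied least of the 5 genes. A second follistatin gene, fstb, is not among the 5 and is given with the list genes below. In batch 1, fsta had 8.53 and 8.08 CPM at 4 dpa, against 9.10 and 7.31 CPM at 0 dpa. The groups overlapped, and the log2 fold change of -0.09 (SE 0.166) was smaller than its error. Its sign turned in some alternatives, with 0.36 under scaling by library size alone. Fins labelled 1 dpa had 1.12, 1.57 and 1.33 CPM, and fins labelled 0 dpa had 2.81, 2.98 and 2.67 CPM, a log2 fold change of -1.0 (SE 0.168) with no overlap. The fins at 2 dpa had 3.77 CPM with the LEN deletion and 3.30 CPM without a named deletion, against 1.6 and 1.15 CPM at 0 dpa in the same order, a log2 fold change of 1.34 (SE 0.272).

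Fibroblasts held little fsta, with 1.58 and 0.774 CPM at 4 dpa and 2.34 and 2.40 CPM at 0 dpa. The log2 fold change was -0.90 with a wide error (SE 0.444), although the libraries did not overlap. It rests on 64 and 31 counts at 4 dpa and 84 and 77 counts at 0 dpa. Without the first or second 4 dpa library it was -1.53 or -0.45. The levels in batch 1 stood apart from every other batch, in 4 dpa and 0 dpa fins alike.

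Counts of inhbaa per count of fsta were compared within each batch, since fsta differed in level between batches. In batch 1 there were 5.18 and 4.72 inhbaa counts per fsta count at 4 dpa and 1.80 and 1.82 at 0 dpa. Fins labelled 1 dpa had 7.63, 6.47 and 7.49, and fins labelled 0 dpa had 90.3, 83.5 and 59.5. The 2 dpa fins had 18.7 with the LEN deletion and 26.4 without a named deletion, and the 0 dpa fins had 6.12 with it and 10.1 without. Fibroblasts had 143 and 299 at 4 dpa and 228 and 374 at 0 dpa, and these ranges overlapped. The ratio is of counts with no length correction, so only its difference between libraries of a batch can be read. The groups lay apart in the 3 whole-fin comparisons and overlapped in fibroblasts, where inhbaa itself did not overlap. The ratio leaves out fstb, which had 95.4 CPM at 4 dpa and 1730 CPM at 0 dpa in fibroblasts. In batch 1 fins fstb had 29.2 CPM at 4 dpa and 54.1 CPM at 0 dpa.

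The midkine gene mdka was higher at 4 dpa in fins and fibroblasts and at 2 dpa in fins, and lower in fins labelled 1 dpa. In batch 1, mdka had 1680 and 1516 CPM at 4 dpa, against 102 and 112 CPM at 0 dpa. This was the widest batch 1 gap among the 5 genes, at 3.80 on the log2 scale (SE 0.183). The 2 dpa fins had 1035 CPM with the LEN deletion and 1019 CPM without a named deletion, against 135 and 173 CPM at 0 dpa in the same order, a log2 fold change of 2.72 (SE 0.120).

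In fibroblasts, mdka had 3572 and 3987 CPM at 4 dpa, against 1252 and 1624 CPM at 0 dpa, with a log2 fold change of 1.49 (SE 0.195). The 0 dpa fibroblasts thus already had about the level of regenerating whole fins, and overlapped the 4 dpa fins of batch 1. Fins labelled 1 dpa had 91.7, 87.4 and 99.6 CPM, and fins labelled 0 dpa had 1105, 1292 and 1115 CPM, with a log2 fold change of -3.59 (SE 0.0868). The lowest and the highest groups were fins labelled 1 dpa and fibroblasts at 4 dpa.

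Sums of fibroblast and epidermal markers differed beside inhbaa and mdka in whole fins. In batch 2 the calls per gene did not follow the sums. In batch 1 the 15 fibroblast markers summed to 12170 to 13400 CPM at 4 dpa and 1220 to 1228 CPM at 0 dpa, with 13 called higher and 1 lower. The 14 epidermal markers summed to 38930 to 43540 CPM at 4 dpa and 120200 to 148200 CPM at 0 dpa, with none called higher and 13 lower. At 2 dpa the fibroblast markers summed to 5692 CPM (LEN deletion) and 6042 CPM, against 1429 CPM (LEN deletion) and 1420 CPM at 0 dpa. Much of the 2 dpa sum was tnc, at 3220 CPM (LEN deletion) and 3240 CPM, against 28.6 CPM (LEN deletion) and 29.5 CPM at 0 dpa. Of the 15 markers, 11 were called higher at 2 dpa, 2 lower and 2 not. The epidermal markers had 70630 CPM (LEN deletion) and 67190 CPM at 2 dpa, against 75930 CPM (LEN deletion) and 89600 CPM at 0 dpa. Of the 14 markers, 2 were called higher at 2 dpa, 10 lower and 2 not. In batch 2 the gaps of the sums were smaller. Fibroblast markers had 1176 to 1201 CPM in fins labelled 1 dpa and 1476 to 1641 CPM in fins labelled 0 dpa. Of 14 tested, 8 were called higher in fins labelled 1 dpa, 5 lower and 1 not, while tnc had 16.4 CPM against 958 CPM. Epidermal markers had 114800 to 128100 CPM in fins labelled 1 dpa and 132400 to 142300 CPM in fins labelled 0 dpa. Of these, 5 were called higher in fins labelled 1 dpa, 4 lower and 5 not, while krt4 had 6420 CPM against 50300 CPM. The 9 osteoblast markers did not keep 1 direction beside inhbaa and mdka. They summed to 13920 to 15860 CPM at 4 dpa and 548.1 to 678.6 CPM at 0 dpa in batch 1. At 2 dpa they had 1220 CPM (LEN deletion) and 1377 CPM, against 651 CPM (LEN deletion) and 776.3 CPM at 0 dpa. In batch 2 they had 460.1 to 504.6 CPM in fins labelled 1 dpa and 134.4 to 163.5 CPM in fins labelled 0 dpa. The part of these sums in the inhbaa and mdka values was not tested.

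The second midkine gene, mdkb, followed a different order. In batch 1 it had 16.4 and 16.2 CPM at 4 dpa, against 8.84 and 11.3 CPM at 0 dpa, a log2 fold change of 0.59 (SE 0.157). Fins at 2 dpa had less of it than fins at 0 dpa, with 0.491 CPM at 2 dpa and 2.01 CPM at 0 dpa with the LEN deletion. Without a named deletion it had 0.780 CPM at 2 dpa and 2.1 CPM at 0 dpa, and the fit gave -1.72 (SE 0.349). Fins labelled 1 dpa had 3.37, 2.31 and 3.49 CPM, and fins labelled 0 dpa had 0.443, 0.596 and 0.645 CPM, a log2 fold change of 2.50 (SE 0.242).

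Fibroblasts had 3.88 and 3.10 CPM of mdkb at 4 dpa, against 0.501 and 1.49 CPM (18 and 48 counts) at 0 dpa. The log2 fold change was 1.91 (SE 0.505). Its size rests on few libraries. Without the first or second 0 dpa library it was 1.28 or 2.87. Without the first or second 4 dpa library it was 1.72 or 2.1. The paralogs therefore differed in opposite directions at 2 dpa and in batch 2, and in the same direction at 4 dpa in fins and in fibroblasts.

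**Figure D2:**
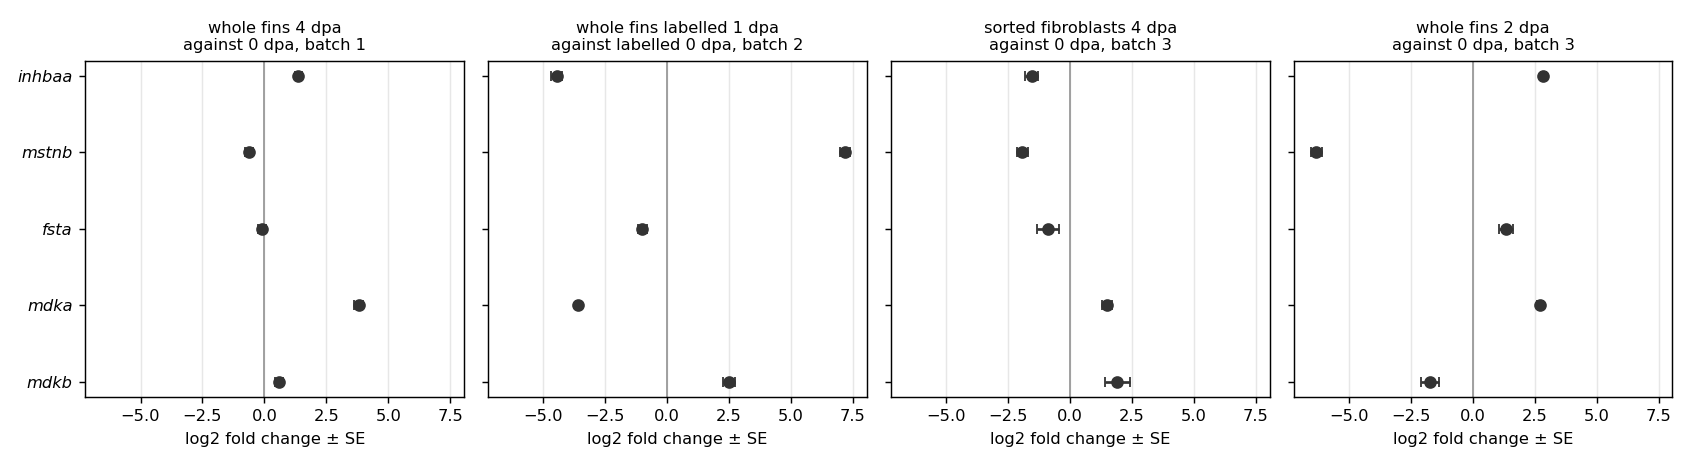
Log2 fold change with its SE (error bar) of each gene in 4 comparisons, positive where the first-named group was higher. The values of inhbaa run from -4.46 to 2.85, those of mstnb from -6.31 to 7.16 and those of fsta from -1.0 to 1.34.

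The share of mdkb among all midkine counts sets the paralogs against each other within each library. In batch 1 it was 0.966% and 1.06% at 4 dpa, against 7.97% and 9.17% at 0 dpa, although both paralogs were higher at 4 dpa, mdka by more. Fins labelled 1 dpa had 3.55%, 2.58% and 3.38%, and fins labelled 0 dpa had 0.0400%, 0.0461% and 0.0578%. The 2 dpa fins had 0.0474% with the LEN deletion (exact 95% interval 0.0271 to 0.0770%) and 0.0765% without a named deletion (0.05 to 0.112%). The matching 0 dpa fins had 1.46% (1.13 to 1.86%) with it and 1.19% (0.913 to 1.54%) without. In these 3 whole-fin comparisons no library of 1 group reached the other.

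In fibroblasts the share was 0.109% and 0.0776% at 4 dpa and 0.0400% and 0.0920% at 0 dpa, and the groups overlapped. Both paralogs were higher at 4 dpa there, so the share did not separate the times. Intervals cover counting error only. How reads that could come from either paralog were treated is not given in the sources used here.

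**Figure D3:**
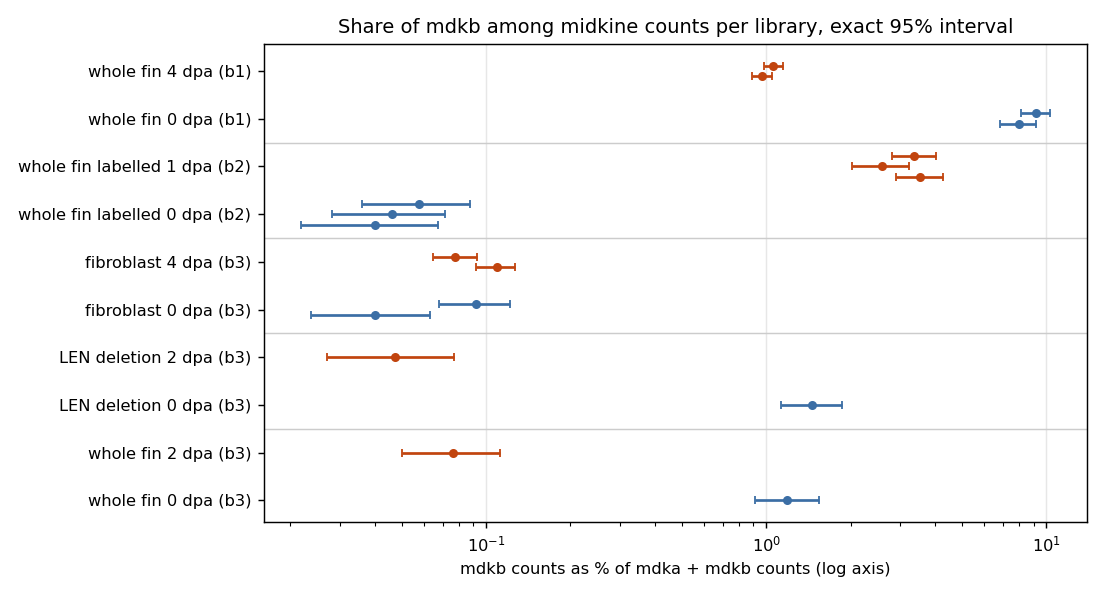
Counts of mdkb as a percent of the summed counts of mdka and mdkb (log axis), 1 point per library with its exact 95% binomial interval, by group. Whole fins at 4 dpa lie at 0.966 and 1.06%, below the 0 dpa fins of their batch at 7.97 and 9.17%.

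Read against all genes, many features differed in each comparison, so a difference in itself does not set the 5 genes apart. In whole fins at 4 against 0 dpa, edgeR gave 65.5% of 11912 tested genes an adjusted p under 0.05, 32.5% higher and 33.0% lower; of the 5 genes, 3 were called higher, 1 lower and 1 not. With scaling by library size alone, 72.7% of the called genes were higher, against 49.7% in the fit used here. In batch 2 it was 81.9% of 11851 genes, 42.0% higher and 39.9% lower in fins labelled 1 dpa, and 2 of the 5 genes were called higher and 3 lower. In fibroblasts it was 53.9% of 12011 genes, 27.8% higher and 26.2% lower, with 2 of the 5 genes higher, 2 lower and 1 not called; under library size alone 67.7% of calls were higher, against 51.5%. At 2 against 0 dpa it was 62.3% of 11873 genes, 31.2% higher and 31.1% lower, with 3 of the 5 genes higher and 2 lower. The groups did not overlap for 4, 5, 5 and 5 of the 5 genes in those 4 comparisons, while over all tested genes this held for 83.9%, 84.2%, 79.3% and 82.0%. These calls come from contrasts that were known when the genes were chosen, and nothing is read from them.

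The 4 dpa response of fibroblasts can be set against that of whole fins as a difference of log2 fold changes. This came from 1 fit over the 14 replicated libraries, batch 2 included, scaled together. It is therefore not the exact difference of the separate fold changes above. Over all genes its median was -0.18. The difference was -3.12 (SE 0.366) for inhbaa, -2.51 (SE 0.204) for mdka, -1.51 (SE 0.222) for mstnb, -1.03 (SE 0.355) for fsta and 1.13 (SE 0.45) for mdkb. Of the 5 genes 4 were called lower and mdkb was not called, where 44.6% of 12644 genes were called, 16.4% higher and 28.2% lower. In the separate fits the inhbaa responses had opposite signs, at -1.55 in fibroblasts and 1.36 in whole fins. Fibroblasts are from batch 3 and these whole fins from batch 1, so cell type and batch cannot be told apart. The fsta difference varied when 1 library was left out. It was -1.63 or -0.60 without the first or second 4 dpa fibroblast library. It was -0.99 or -1.07 without the first or second 4 dpa fin, and -0.88 without the second 0 dpa fin. The mdkb difference was 0.51 without the first 0 dpa fibroblast library and 2.1 without the second.

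Stress genes differed along with the fibroblast values. A list of 19 measured dissociation and heat stress genes, among them immediate early and heat shock genes, was chosen with earlier results known. It summed to 31810 to 33880 CPM in fibroblasts at 4 dpa and 129000 to 170700 CPM at 0 dpa, and to 2065 to 6609 CPM in whole fins of all groups. Of the 19 genes, 15 were lower in fibroblasts at 4 dpa, none was higher and 4 were not called, with a median log2 fold change of -1.99. The 0 dpa fibroblasts, highest in this sum, were also highest in inhbaa, and the library with 897 CPM of inhbaa had the larger sum. The epidermal markers were higher at 0 dpa as well, as given above. The library with 897 CPM of inhbaa had 20820 CPM of them, and the other 0 dpa fibroblast library 40100 CPM. With 2 libraries nothing is read from their order in either sum. Leukocyte markers were instead higher at 4 dpa, at 799.7 to 840 CPM against 235.4 to 465.1 CPM at 0 dpa. Of 9 leukocyte markers, 4 were called higher at 4 dpa, 1 lower and 4 not. The part of any of these in the inhbaa, mstnb and mdkb values of fibroblasts was not tested. Among whole fins, the 3 libraries labelled 0 dpa had 4067 to 5494 CPM of the stress genes and 159 to 254 CPM of inhbaa. The libraries labelled 1 dpa had 5293 to 6609 CPM of the stress genes and 8.58 to 10.2 CPM of inhbaa. The part of the stress genes in the whole-fin inhbaa values was not tested.

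**Figure D4:**
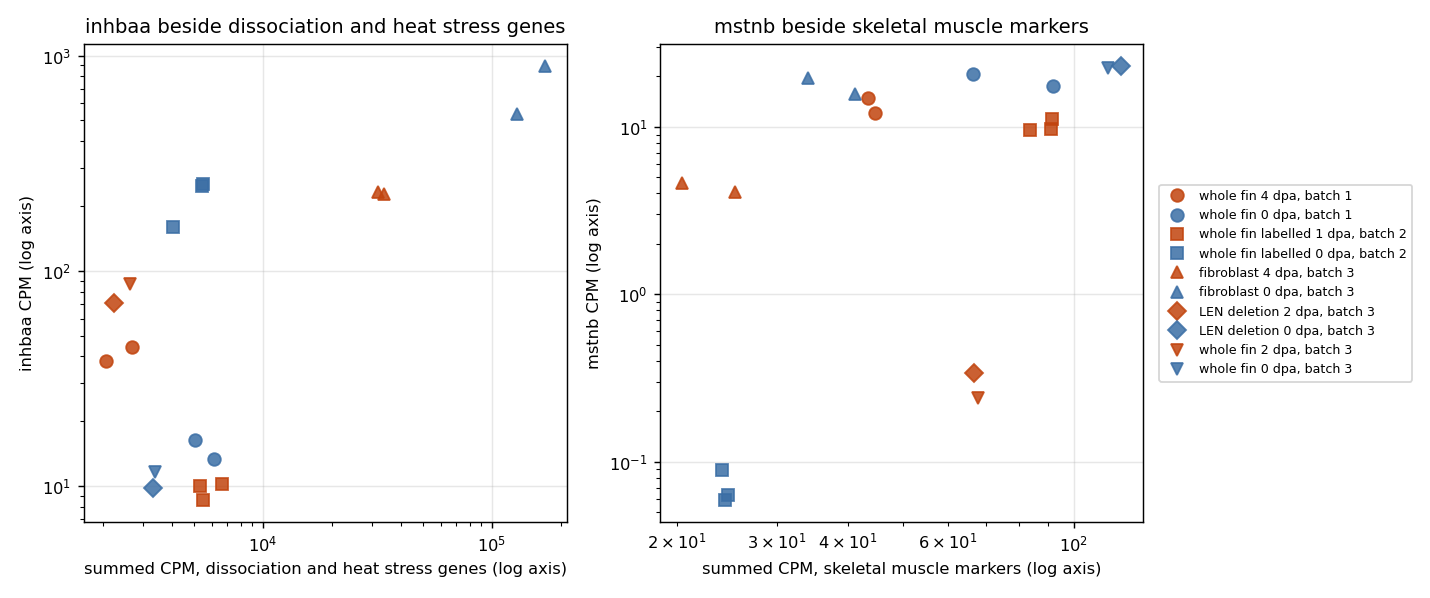
Left, inhbaa CPM against the summed CPM of 19 dissociation and heat stress genes; right, mstnb CPM against the summed CPM of 25 skeletal muscle markers (all axes log), 1 point per library, shape and colour by group. The 0 dpa fibroblasts lie at 129000 to 170700 CPM of stress genes, and the lowest mstnb values, in fins labelled 0 dpa, at 24.0 to 24.6 CPM of muscle markers.

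Deletion of LEN was represented by 1 library per group, so ratios with and without it have no replicate check and their intervals cover counting error only. At 2 dpa the ratio of the deletion to no named deletion was 0.812 for inhbaa (0.769 to 0.858), 1.01 for mdka (1.00 to 1.03), 1.14 for fsta (0.877 to 1.49), 1.41 for mstnb (0.515 to 4.03) and 0.629 for mdkb (0.315 to 1.22). At 0 dpa it was 0.839 for inhbaa (0.717 to 0.982), 0.781 for mdka (0.749 to 0.814), 1.39 for fsta (0.879 to 2.22), 1.04 for mstnb (0.933 to 1.16) and 0.958 for mdkb (0.663 to 1.39). The intervals for inhbaa lay under 1 at both times and that for mdka at 0 dpa. How many of all genes had an interval off 1 was not counted. Replicates of the other groups differed by 14.9 to 126 times counting noise (chi-square per degree of freedom), so no effect of the deletion is read from these intervals. Of all genes with at least 40 counts, 10.0% differed by 1.5-fold or more at 0 dpa and 4.22% at 2 dpa. Among the 5 genes only mdkb at 2 dpa passed that size, on 16 counts with the deletion and 26 without.

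Other genes of the activin pathway were taken from lists written from general knowledge, with earlier results of these libraries known, and their p-values are adjusted over all genes tested. Over 6 lists, 62 of 87 symbols were matched. In whole fins at 4 against 0 dpa 66.7% of 57 tested list genes were called, beside 65.5% of all genes. In batch 2 it was 80.0% of 55, beside 81.9%; in fibroblasts 62.1% of 58, beside 53.9%; and at 2 against 0 dpa 69.1% of 55, beside 62.3%.

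Of the ligand genes other than the chosen ones, 3 were higher, 3 lower and 2 not called in whole fins at 4 dpa (median log2 fold change 0.16, against -0.01 over all genes); 1 was lower under library size scaling or without the second 4 dpa library. The paralog inhbab, the other activin beta A gene, had 24.0 ± 0.176 CPM at 4 dpa and 2.06 ± 0.152 CPM at 0 dpa (SD, n = 2 each), a log2 fold change of 3.44 in edgeR (adjusted p 4.27e-07). The beta B gene inhbb was lower, at 44.3 ± 2.27 CPM at 4 dpa and 83.7 ± 0.746 CPM at 0 dpa (log2 fold change -1.02, adjusted p 4.82e-05 in edgeR). The ligand gene tgfb2 was higher, by 1.70 (adjusted p 2.81e-05 in edgeR). In fins labelled 1 dpa 3 ligand genes were higher and 3 lower, and inhbab was lower by edgeR with a log2 fold change of -4.09 (adjusted p 3.58e-07), at 1.54 ± 0.536 CPM against 27.5 ± 2.99 CPM in fins labelled 0 dpa (SD, n = 3 each). There inhbb was higher, by 2.18 (adjusted p 3.8e-07 in edgeR).

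In fibroblasts at 4 dpa no ligand gene was higher, 5 were lower and 4 were not called (median -0.94, against 0 over all genes); the lower ones numbered 3 without the first 4 dpa library and 8 without the first 0 dpa library. The lower ones included tgfb3, a TGF-beta ligand (-1.37, adjusted p 5.3e-05 in edgeR), inhbb (-1.33, adjusted p 8.16e-05) and gdf11, the closest relative of myostatin (-3.86, adjusted p 0.000115). The level of gdf11 was low, at 0.186 CPM at 4 dpa and 2.93 CPM at 0 dpa in the mean. The paralog inhbab, at 93.7 ± 16.2 CPM at 4 dpa and 130 ± 2.23 CPM at 0 dpa (SD, n = 2 each), had a log2 fold change of -0.38 that was not called. At 2 against 0 dpa in batch 3, 3 ligand genes were higher and 1 lower, with inhbab at 113 CPM (LEN deletion) and 114 CPM at 2 dpa, against 3.14 CPM (LEN deletion) and 4.96 CPM at 0 dpa. The second myostatin gene, mstna, was scarce, with 15 and 16 counts in whole fins at 4 dpa and 0 and 1 counts in those at 0 dpa. It is 1 of the 3 ligand genes called higher there (adjusted p 0.00414 in edgeR), with a ratio of summed counts of 17.5 (exact conditional 95% interval 2.91 to 713). In fibroblasts it had 17 and 22 counts at 4 dpa and 22 and 10 counts at 0 dpa and was not called.

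Genes for proteins that bind or release these ligands gave 7 higher, 2 lower and 2 not called in whole fins at 4 dpa (median 1.03, against -0.01 over all genes). They included bmp1a, a protease whose mammalian counterpart frees myostatin from its propeptide, at 439 ± 41.7 CPM at 4 dpa and 46.6 ± 6.7 CPM at 0 dpa (log2 fold change 3.12, adjusted p 5.11e-07 in edgeR). The related protease gene tll1 was higher by 2.71 (adjusted p 5.29e-06 in edgeR) and the follistatin-like gene fstl1b by 2.87 (adjusted p 3.71e-07). The activin antagonist gene fstl3 was lower, at 31.1 ± 3.26 CPM at 4 dpa and 88.1 ± 10.6 CPM at 0 dpa (-1.61, adjusted p 8.86e-06 in edgeR). In fibroblasts 3 of the 11 were higher, 4 lower and 4 not called (median -0.14). The second follistatin gene, fstb, had 95.4 ± 6.14 CPM in fibroblasts at 4 dpa and 1730 ± 29.8 CPM at 0 dpa (-4.08, adjusted p 7.98e-07 in edgeR). The level of fstl3 was 253 ± 5.62 CPM at 4 dpa and 1170 ± 235 CPM at 0 dpa (-2.11, adjusted p 1.59e-05 in edgeR). Fins labelled 1 dpa had more fstb (1.47, adjusted p 8.06e-08 in edgeR) and more fstl3 (2.18, adjusted p 6.7e-05), among 3 genes higher, 6 lower and 2 not called. At 2 against 0 dpa 5 were higher, 3 lower and 3 not called.

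Receptor genes were divided. In whole fins at 4 dpa 2 were higher (4 under library size scaling), 3 lower and 3 not called. The type II activin receptor gene acvr2aa (-1.43, adjusted p 9.08e-06 in edgeR) and tgfbr2, the type II TGF-beta receptor gene (-1.19, adjusted p 1.83e-05), were lower. The gene bambia, for a pseudoreceptor that dampens signalling, was higher (1.76, adjusted p 3.53e-06 in edgeR). In fins labelled 1 dpa 3 were higher, 2 lower and 3 not called, with acvr2aa higher by 1.70 and tgfbr2 by 1.77 (adjusted p 2.79e-08 and 1.04e-08 in edgeR); 1 was lower when any of the 3 libraries labelled 1 dpa, or the second labelled 0 dpa, was left out. In fibroblasts 2 were higher, 2 lower and 4 not called, or 1 higher and 1 lower without either 4 dpa library, with tgfbr2 again lower (-1.22, adjusted p 0.000104 in edgeR). At 2 against 0 dpa 2 were higher, 3 lower and 3 not called.

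Smad and feedback genes gave 3 higher, 3 lower and 6 not called in whole fins at 4 dpa; the higher ones numbered 8 under library size scaling, and 0 or 1 without the first or second 4 dpa library. The Smad repressor gene skilb (-1.85, adjusted p 5.98e-06 in edgeR) and the transducer gene smad3a (-1.28, adjusted p 0.000178) were lower. In fibroblasts none was higher, 7 were lower and 5 were not called (median -0.84). They included skilb (-2.28, adjusted p 5.86e-06 in edgeR), smad3a (-1.47, adjusted p 0.000101) and the corepressor gene tgif1 (-2.06, adjusted p 8.87e-05). In fins labelled 1 dpa 2 were higher, 5 lower and 5 not called. The feedback inhibitor gene pmepa1 was lower there, at 4.52 ± 0.438 CPM against 30.0 ± 3.80 CPM in fins labelled 0 dpa (-2.66, adjusted p 6.95e-08 in edgeR). It was higher at 2 against 0 dpa (2.23, adjusted p 8.63e-07 in edgeR), where 6 were higher, 1 lower and 5 not called.

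Genes known as targets of TGF-beta or activin signalling did not follow a common direction in whole fins. At 4 dpa 3 were higher (1 without the second 4 dpa library), 4 lower and 2 not called, among the lower ones ctgfb (-4.32, adjusted p 6.55e-07 in edgeR), a matricellular growth factor gene, and the transcriptional repressor gene bhlhe40 (-2.44, adjusted p 1.65e-06). In fins labelled 1 dpa 5 were higher, 3 lower and 1 not called, with bhlhe40 higher (2.42, adjusted p 3.02e-08 in edgeR) and the cell cycle inhibitor gene cdkn1a lower (-2.93, adjusted p 6.07e-08). In fibroblasts none was higher, 6 were lower and 3 were not called (median -1.99), with bhlhe40 (-2.57, adjusted p 5.41e-06 in edgeR), ctgfa (-2.40, adjusted p 1.84e-05) and junba (-1.99, adjusted p 2.87e-05) lower. At 2 against 0 dpa 4 were higher, 4 lower and 1 not called.

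The list of midkine partners holds the relative ptn (pleiotrophin), heparan sulfate proteoglycans, integrins and the receptor kinase gene ltk. The gene ltk is also 1 of 10 pigment cell markers. Of those, 9 were called higher in fins labelled 1 dpa, 0 lower and 1 not. In whole fins at 4 dpa 2 were higher, 3 lower and 4 not called, with 5 higher under library size scaling and 1 without the second library of either time. The integrin genes itgb1a and itga6b were higher (1.84, adjusted p 8.02e-06 in edgeR) and lower (-2.23, adjusted p 9.46e-06) in that order. In fins labelled 1 dpa 4 were higher and 5 lower, with ptn (2.37, adjusted p 2.01e-06 in edgeR) and ltk (2.27, adjusted p 4.71e-07) higher. In fibroblasts none was higher, 7 were lower and 2 were not called (median -1.36), with itga6b at 79.9 ± 6.85 CPM at 4 dpa and 827 ± 256 CPM at 0 dpa (-3.28, adjusted p 1.38e-05 in edgeR). The syndecan gene sdc4 was lower too (-2.03, adjusted p 3.18e-05 in edgeR). At 2 against 0 dpa 3 were higher, 3 lower and 3 not called. In fibroblasts the lower calls in the ligand, Smad, target and partner lists stood beside the lower stress gene and epidermal sums and the higher leukocyte sum at 4 dpa given above, and the part of those sums was not tested.

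**Figure D5:**
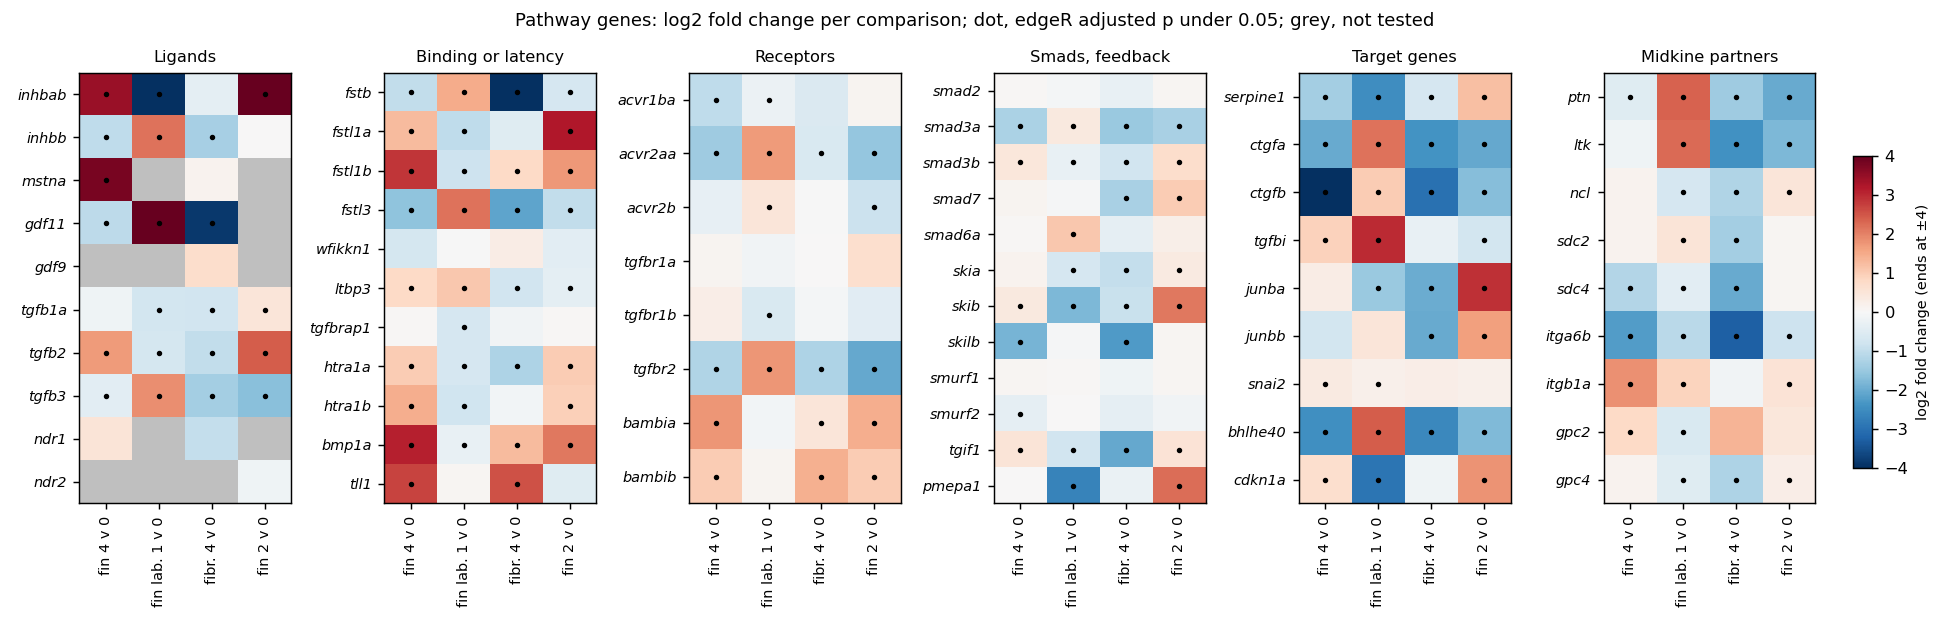
Log2 fold change (colour, ending at 4 either way) of the tested genes of 6 lists in whole fins at 4 against 0 dpa, fins labelled 1 against labelled 0 dpa, fibroblasts at 4 against 0 dpa and fins at 2 against 0 dpa; a dot marks an edgeR adjusted p under 0.05 and grey a gene not tested. In the fibroblast column 31 genes are called lower and 5 higher.

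Genes with the most similar profile over the 18 libraries were found by the root mean square difference of centred log2(CPM + 1) among 8385 genes. These had a mean of 5 CPM or more, and the chosen genes and symbols that are clone identifiers were left out. For inhbaa they were the transcription factor genes sox11a (0.56) and homeza (0.76), and rasl11b (0.77), where the SD of inhbaa itself was 2.19. For mstnb they were the collagen gene col8a2 (0.56), the biglycan gene bgnb (0.56) and the FGF receptor gene fgfr4 (0.69), where the SD was 1.76. The matrix gene col8a2 had 2.01 CPM in fins labelled 0 dpa, 3.13 CPM in the LEN deletion fin at 2 dpa and 2.67 CPM in the other 2 dpa fin, and 20.3 to 135 CPM in the mean of every other group, so it was low in the same libraries as mstnb. For fsta they were foxred2 (0.43), the leptin receptor gene lepr (0.44) and tspan5b (0.45), where the SD was only 0.80. For mdka they were psmb7 (0.34), calua (0.36), for an endoplasmic reticulum calcium-binding protein, and the elastic fibre gene efemp2a (0.44), where the SD was 1.98. For mdkb they were the adenylate cyclase gene adcy7 (0.61), the calcium channel gene cacna1c (0.67) and the DNA methyltransferase gene dnmt3aa (0.70), where the SD was 1.21. These distances are a description over libraries that share batches, and no test was made.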

How the data were processed

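Messenger RNA was counted in 18 of the 36 samples of the series; the 18 accessibility samples were not analysed here. The deposited data give integer counts of reads for each gene and library, per the file headers and values, with 14781 symbols and 5 summary entries that stayed out of library sizes and tests (no feature 26.5 to 39.0%, ambiguous 0.246 to 0.645%). The kit was stranded, per the labels' protocols. The submitters' processing notes name Trim Galore 0.6.4, TopHat2 2.1.1, HTSeq 1.6.1 and danRer10 for RNA; the annotation is not given in the sources used here, nor is the strand setting, and overlapping, antisense and paralogous genes are uncertain.

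Tests used edgeR 4.0.16 in R 4.3.3 (quasi-likelihood F, robust, TMM, filterByExpr, two-sided, Benjamini-Hochberg over all tested genes, threshold 0.05). Each comparison used its own libraries without covariates, except a genotype term at 2 against 0 dpa. The fibroblast difference was a contrast of 4 groups in 1 fit over the 14 replicated libraries, batch 2 included. SE is the fold change divided by the root of F. Replicates differed by 14.9 to 126 times counting noise (chi-square per degree of freedom). Labels call them replicate pools, and p-values of the replicated comparisons measure the spread between these pools. At 2 against 0 dpa, with 1 library per group, the fit takes a differing response of the genotypes as error instead. The steps of the separate comparisons, but not of the fibroblast difference, were run on simulated data. There only a small part of the genes was changed, evenly up and down. Far more genes differed in these libraries, so that run does not check the scaling or the share of wrong calls here. Members and lists were chosen with earlier results of these data known. Genes named from a list were up to 4 with the smallest p in a replicated comparison, and, chosen after their values were seen, inhbab in fibroblasts and at 2 dpa, pmepa1 at 2 dpa, and fstl3 in batch 2. Alternatives were DESeq2 1.42.0, its size factors, library size scaling, no filter, 1 fit over all replicated groups, the replicate block, no genotype term and leaving out each replicate.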

Additional observations from a re-analysis of the deposited data

Results flagged for a closer look

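The responses of fibroblasts and of whole fins at 4 against 0 dpa were set side by side by a contrast of the 4 groups. The edgeR fit for this contrast held all 14 replicated libraries, batch 2 included. It called 4 of the 5 genes, where 44.6% of 12644 genes were called and 28.2% were lower. The fibroblast log2 fold change minus that of whole fins was -3.12 for inhbaa, whose level was lower at 4 dpa in fibroblasts and higher at 4 dpa in whole fins. It was -2.51 for mdka, higher at 4 dpa in both. It was -1.51 for mstnb, lower at 4 dpa in both and by more in fibroblasts. It was -1.03 for fsta, with values from -1.63 to -0.60 over 13 alternatives. Over all genes the median of this difference was -0.18. Cell type and batch cannot be told apart. The genes were chosen with the separate responses known, so these values and calls are a description and nothing is read from the calls.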

How the results depend on the processing

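Of 250 alternative values for the 5 genes, 3 turned direction. Calls of the 5 genes are not used here as a measure of stability. All 3 were fsta in whole fins at 4 against 0 dpa, at 0.36 with library size scaling, 0.01 with all replicated groups in 1 fit and 0.10 without the first 0 dpa library (-0.23 without the second); the cause was not tested. Library size scaling gave all genes a median log2 fold change of 0.44 in batch 1, 0.16 in batch 2 and 0.32 in fibroblasts, against -0.01, 0.06 and 0 with TMM, and no other member changed sign. The fsta value in fibroblasts was -1.02 with all replicated groups in 1 fit and -0.57 with library size scaling. It was -0.96 or -0.90 without the first or second 0 dpa library. It was -1.53 or -0.45 without the first or second 4 dpa library. For the fibroblast minus whole-fin difference, library size scaling gave -0.94 for fsta and 1.19 for mdkb. DESeq2 or its size factors in edgeR gave 1.2 for mdkb.

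Counts of called genes stayed within 1.5 times in 48 of 50 alternatives. Leaving out 1 library gave 6273 to 7898 calls in batch 1, 9337 to 9719 in batch 2, 3827 to 7525 in fibroblasts and 4710 to 6015 for the difference; the low fibroblast counts, 3827 and 4026, came without the first and second 4 dpa library, which leaves 1 library in that group, assumed to vary like the other. Of 600 list counts 40 moved by more than 1.5 times, and of 812 other gene values 18 lost and 3 gained a call and none turned. Replicate numbers were not used as pairs in the main fits. Deviations of same-numbered libraries correlated at 0 in batch 1, -0.149, -0.100 and 0.107 in batch 2 and 0.073 in fibroblasts. In batch 2 the libraries of unlike number gave -0.151 to 0.239. With so few libraries per group these values cannot show whether samples were paired. With the replicate block 7757 genes were called in batch 1, 9522 in batch 2, 6475 in fibroblasts and 5286 for the difference. For the 2 dpa comparison no library could be left out, since no residual degrees of freedom remain. Depth limits mstnb in fins labelled 0 dpa (2 to 3 counts per library) and at 2 dpa (11 and 8 counts), and fsta in fibroblasts. It also limits mdkb, with 18 and 48 counts in fibroblasts at 0 dpa and 14, 20 and 22 in fins labelled 0 dpa. At 2 dpa mdkb had 16 counts with the LEN deletion and 26 without a named deletion.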
